A study of Mus musculus with 12 samples.

Results

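The genes described here encode the nuclear subunits of the 4 mitochondrial respiratory chain complexes and of ATP synthase, called complex V. They were taken by symbol, with Ndufa, Ndufb, Ndufc, Ndufs and Ndufv for complex I, Sdha to Sdhd for complex II, Uqcr for complex III, Cox4 to Cox8 for complex IV and Atp5 for complex V. Ndufa4l2, the Ndufaf assembly factors and pseudogenes were left out, and Ndufa4 was counted with complex IV, where its protein is found. Of the 18193 genes that had a probe set naming them alone, 81 met this rule, and 168 probe sets read them. Complex I had 34 of these genes, complex II 4, complex III 8, complex IV 18 and complex V 17. Ndufa11 and Ndufs6 were read only by probe sets shared with another gene, so they are not among the 81. Other nuclear-encoded subunit genes outside the 81 were not analysed here, except Cyc1 of complex III, which is read with the electron carriers below. The subunits encoded by mitochondrial DNA have other symbols and are not included.

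The respiratory chain passes electrons from NADH, through complex I, and from succinate, through complex II, to ubiquinone, then to cytochrome c through complex III and to oxygen through complex IV. Complexes I, III and IV pump protons across the inner mitochondrial membrane, and ATP synthase uses the returning protons to make ATP. In brain microvessels the chain has been studied because the blood-brain barrier's transporters use ATP and because brain endothelial cells are rich in mitochondria, and several complex IV subunits exist as tissue-specific isoforms.

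Gene expression was measured on Affymetrix Mouse Genome 430 2.0 arrays in microvascular fragments, short pieces of small vessels with the cells attached to them, from the cerebrum and the cerebellum. The mice were C57BL/6, 2 months old, and either lacked Notch3, a receptor of smooth muscle cells and pericytes, or were littermate controls. With 3 arrays for each genotype and region, there were 12 arrays in 4 groups of 3, and the labels name no treatment. Arrays of a genotype with the same replicate number were taken as the regions of the same mouse, giving 3 mice per genotype. The labels do not state this pairing, and all results by mouse below rest on it. The labels used here do not say how the Notch3 allele was made. Vessel fragments were profiled in bulk, so fewer cells of a type and less RNA per cell cannot be told apart.

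Notch3 itself lay between 10.84 and 12.02 log2 in the 6 control arrays and between 2.48 and 3.58 in the 6 knockout arrays, which fits the labels of all 12. Array medians lay between 3.236 and 3.298. Of the endothelial markers 11 of 11 with a probe set of their own were detected, as were 10 of 10 smooth muscle markers and 9 of 10 pericyte markers, the exception being Anpep. Gfap of astrocytes, Tubb3, Nefl, Nefm and Slc17a7 of neurons, Cbln1 and Cbln3 of cerebellar granule cells, and Mog and Mag of oligodendrocytes did not pass the filter on low values.

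A gene was tested when its brightest probe set lay above 3.27, the median of all values, on at least 3 of the 12 arrays. Of the 81 subunit genes 74 passed, among 11716 genes tested in all. They were 32 of complex I, 4 of complex II, 8 of complex III, 13 of complex IV and 17 of complex V. Mean levels of the 74 ranged from 4.26 for Cox6b2 to 14.87 for Uqcrb, but levels of different probe sets depend on their probes and are not compared here. A gene is said below to be higher or lower, or to be called, when its Benjamini-Hochberg adjusted p in limma, over all 11716 genes, was under 0.05.

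The 7 subunit genes that were not tested were Ndufb1, Ndufb4, Cox4i2, Cox6a2, Cox7b2, Cox8b and Cox8c. Ndufb1 lay between 1.83 and 1.85 and Ndufb4 between 2.16 and 2.20 on every array; other probe sets that read Ndufb4 are shared with related genes. The other 5 are tissue-specific isoforms of complex IV subunits. Cox4i2, the isoform of subunit 4 known from lung and from pericytes, lay between 2.12 and 2.15. Cox6a2, the heart and skeletal muscle isoform of subunit 6a, lay between 2.15 and 2.18. Cox7b2 lay between 2.29 and 2.34 and Cox8c, a testis isoform, between 1.62 and 1.64. Cox8b, the muscle isoform of subunit 8, lay between 2.48 and 3.296, and knockout cerebral 2 was the highest array. These values are near the floor of the arrays and give no order between groups.

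Promoter windows, from 250 bases before to 50 bases after the annotated start, were matched in RefSeq (GRCm38.p6) for 63 of the 74 tested subunit genes. They were searched on both strands for letters bound by 3 factors known to act on genes of this kind: GCGCANGCG for NRF1, CCGGAAG for the ETS family that includes GABPA, and AAGATGGCG for YY1. At least 1 of the 3 was found in 33 of 63 windows, 52.4%, against 33.5% of the 9485 tested genes with a window and 16.5% of all 27025 genes with one. The NRF1 letters were in 17 subunit genes (27%, against 15.2% of tested genes), the ETS letters in 17 (27%, against 19.5%) and the YY1 letters in 6 (9.52%, against 3.62%). A match is a run of letters, not a site shown to be bound. The YY1 matches are printed for what these promoters share, since 5 of the 6 begin 23 to 36 bases after the annotated start. Each line gives 30 bases in the direction of the gene, with the matched letters in capitals.
Ndufs7: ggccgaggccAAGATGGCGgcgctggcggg
Ndufc1: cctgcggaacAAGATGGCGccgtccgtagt
Ndufa9: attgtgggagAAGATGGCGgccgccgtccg
Ndufs4: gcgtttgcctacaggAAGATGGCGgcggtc
Atp5j2: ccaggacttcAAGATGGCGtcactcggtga
Atp5j: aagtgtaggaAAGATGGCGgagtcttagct
These stretches lie at chr10:80249463-80249492 (plus strand) for Ndufs7, chr3:51408914-51408943 (minus) for Ndufc1, chr6:126849096-126849125 (minus) for Ndufa9, chr13:114388045-114388074 (minus) for Ndufs4, chr5:145191499-145191528 (minus) for Atp5j2 and chr16:84835045-84835074 (minus) for Atp5j. In Atp5j the match begins 88 bases before the start.

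A stricter search for NRF1 with GCGCATGCG, which is contained in the looser one, matched 7 of 63 windows (11.1%, against 4.03% of tested genes and 1.95% of all genes). These stretches are printed because Atp5g2 and Cox6a1 belong to isoform sets described below, Atp5k had the largest knockout difference of complex V, and Atp5l, Uqcr11 and Uqcrc1 were among the genes higher in cerebellar fragments. Capitals mark the letters matched on either strand, and where matches on both strands overlap they mark the joined run.
Atp5g2: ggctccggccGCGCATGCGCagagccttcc
Atp5k: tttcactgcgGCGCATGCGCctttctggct
Cox6a1: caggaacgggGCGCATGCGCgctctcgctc
Uqcrc1: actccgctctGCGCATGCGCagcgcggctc
Uqcr11: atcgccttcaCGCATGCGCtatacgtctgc
Ndufa8: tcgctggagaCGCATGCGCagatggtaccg
Atp5l: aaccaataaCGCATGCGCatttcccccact
They lie at chr15:102671070-102671099 (minus) for Atp5g2, chr5:108434430-108434459 (minus) for Atp5k, chr5:115349101-115349130 (minus) for Cox6a1 and chr9:108936668-108936697 (plus) for Uqcrc1. Those of Uqcr11, Ndufa8 and Atp5l lie at chr10:80406807-80406836, chr2:36049328-36049357 and chr9:44920963-44920992, all on the minus strand. In 4 of the 7 genes the run reads the same on both strands.

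The first question was whether loss of Notch3 changed the subunit genes. In cerebral fragments 1 of 74 was lower in the knockout, Ndufs7, and none was higher. In cerebellar fragments none was called in either direction, and none was called on the mean of a mouse's regions, 3 mice against 3. Over all tested genes 6.38% were called in cerebral fragments (2.45% higher and 3.93% lower), 4.22% in cerebellar fragments (1.06% and 3.17%) and 4.03% on the means (1.02% and 3%). The median knockout difference of the 74 was -0.04 log2 in cerebral fragments and 0.04 in cerebellar fragments, beside -0.01 and 0.01 over all tested genes. On the means it was 0.00. The difference was above 0 for 27 of 74 subunit genes in cerebral fragments, 45 in cerebellar fragments and 38 on the means, beside 46.6%, 52.6% and 49.9% of all tested genes.

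Without adjustment, p in limma was under 0.05 for 11 of 74 subunit genes in cerebral fragments, where 20.6% of all genes had such a p. In cerebellar fragments 6 of 74 had one, beside 16.8% of all genes, and on the means 5, beside 19.7%. The 3 knockout arrays lay wholly above the 3 control arrays for 5 subunit genes and wholly below them for 10 in cerebral fragments, 15 of 74, where 24.4% of all genes had groups that did not overlap (10.1% above and 14.3% below). In cerebellar fragments 7 lay above and 2 below, where 22.1% of all genes did not overlap (10.4% above and 11.7% below). The 95% interval of a subunit gene's knockout difference, without adjustment, reached 0.19 to either side in each region and 0.20 on the means, as the median over the 74. These intervals used only the residual degrees of freedom of the fit, 8 in each region and 4 on the means. The p in limma rest on more degrees of freedom, so the intervals are somewhat wider than those tests imply.

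**Figure D1:**
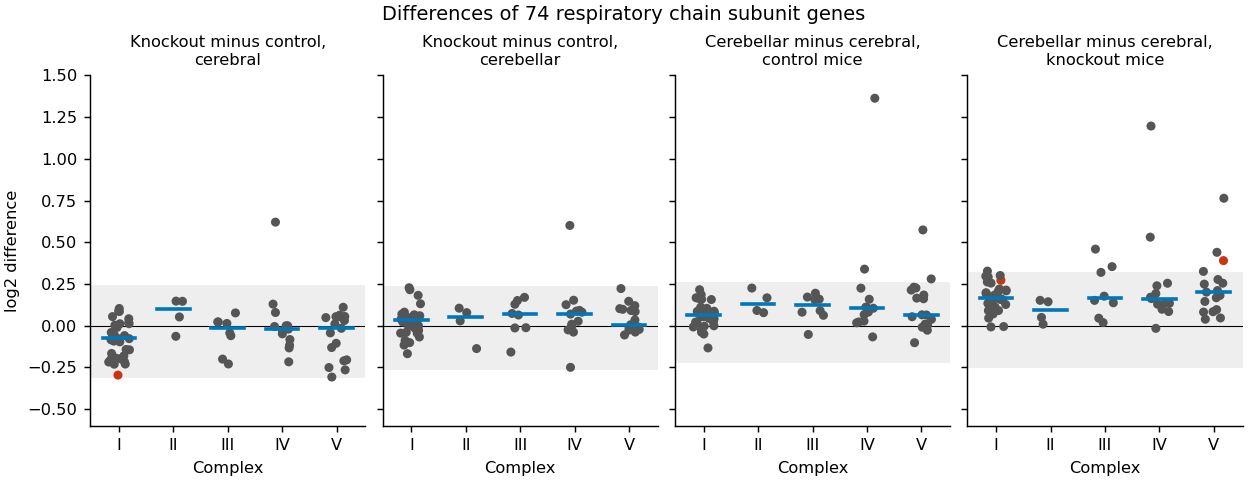
Log2 differences of the 74 tested subunit genes (points) by complex in 4 comparisons, with the median of each complex as a blue bar; red points are genes with adjusted p under 0.05 in limma and the grey band runs from the 10th to the 90th percentile of all 11716 tested genes. Knockout differences lie on both sides of 0 in both regions, with Ndufs7 called in cerebral fragments; region differences lie mostly above 0, in 62 of 74 genes in control mice and 71 of 74 in knockout mice.

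Complex I, the NADH dehydrogenase, had a median knockout difference of -0.08 over its 32 tested genes in cerebral fragments and 0.03 in cerebellar fragments. Ndufs7 encodes the core subunit that holds the iron-sulfur cluster nearest to the ubiquinone site, and its promoter stretch is the first shown above. Its level was 12.68, 12.61 and 12.64 in the control cerebral arrays and 12.25, 12.36 and 12.43 in the knockout cerebral arrays. It was 12.50, 12.49 and 12.54 in the control cerebellar arrays and 12.24, 12.41 and 12.37 in the knockout cerebellar arrays. The knockout arrays lay below the control arrays in both regions, without overlap.

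The difference of Ndufs7 was -0.30 log2 (SE 0.06, adjusted p = 0.0206 in limma) in cerebral fragments. It was -0.17 (adjusted p = 0.199) in cerebellar fragments and -0.23 (SE 0.06, adjusted p = 0.0956) on the means of both regions, and neither passed. A second probe set of Ndufs7 gave -0.11 in cerebral and 0.03 in cerebellar fragments. The cerebral call was lost when the probe sets of a gene were averaged (-0.21, adjusted p = 0.11), when the fit held only the cerebral arrays (adjusted p = 0.0925), without control cerebral 1 (adjusted p = 0.076) and without knockout cerebral 1 (adjusted p = 0.0749).

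Ndufa13, also known as the cell death regulator GRIM-19, had the smallest knockout difference of complex I on the means, 0.00 (SE 0.08). Its arrays read 13.18, 13.16 and 13.32 in control cerebral and 13.11, 13.28 and 13.28 in knockout cerebral fragments. The cerebellar arrays read 13.25, 13.38 and 13.51 in controls and 13.27, 13.44 and 13.43 in knockouts, so the genotypes overlapped in both regions. Over the 32 genes of complex I the knockout differences ran from -0.30, that of Ndufs7, to 0.10 in cerebral fragments and from -0.17, again Ndufs7, to 0.23 in cerebellar fragments.

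Complex II, succinate dehydrogenase, is also an enzyme of the citric acid cycle. Its 4 genes had a median knockout difference of 0.10 in cerebral and 0.05 in cerebellar fragments, and none was called. Sdha, the flavoprotein that binds succinate, read 12.55, 12.51 and 12.56 in control cerebral and 12.65, 12.78 and 12.64 in knockout cerebral fragments. In cerebellar fragments it read 12.63, 12.63 and 12.60 in controls and 12.72, 12.74 and 12.63 in knockouts. The knockout arrays lay above the control arrays in both regions, and the difference on the means, 0.11 (SE 0.05, adjusted p = 0.296), did not pass the test.

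Sdhb, the iron-sulfur subunit of complex II, had the smallest difference of the complex on the means, 0.08 (SE 0.07, adjusted p = 0.623). Its cerebral arrays read 11.71, 11.74 and 11.93 in controls and 11.79, 11.85 and 11.90 in knockouts. Its cerebellar arrays read 11.83, 11.84 and 11.99 in controls and 11.96, 11.90 and 12.11 in knockouts. The genotypes overlapped in both regions.

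Complex III, the cytochrome bc1 complex, had a median knockout difference of -0.02 in cerebral and 0.07 in cerebellar fragments over its 8 genes. Uqcrc2, the core 2 protein that faces the matrix, read 14.39, 14.41 and 14.40 in control cerebral and 14.07, 14.23 and 14.22 in knockout cerebral fragments. The cerebellar arrays read 14.41, 14.35 and 14.29 in controls and 14.12, 14.27 and 14.17 in knockouts. All knockout arrays lay below all control arrays of the same region. The difference was -0.23 (SE 0.06, adjusted p = 0.0606) in cerebral fragments, -0.16 (adjusted p = 0.233) in cerebellar fragments and -0.19 (SE 0.06, adjusted p = 0.14) on the means, and none passed. The cerebral difference did pass when arrays were centred on their medians, with a trended robust variance or with array weights. A second probe set of Uqcrc2 gave smaller differences, -0.08 in cerebral and -0.06 in cerebellar fragments.

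Uqcrb, which binds near the ubiquinone site of complex III, had the smallest difference of the complex on the means, 0.00 (SE 0.04). Its cerebral arrays read 14.82, 14.81 and 14.86 in controls and 14.83, 14.89 and 14.85 in knockouts. Its cerebellar arrays read 14.90, 14.91 and 14.92 in controls and 14.93, 14.87 and 14.89 in knockouts, and the genotypes overlapped in both.

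Complex IV, cytochrome c oxidase, had a median knockout difference of -0.02 in cerebral and 0.07 in cerebellar fragments over 13 tested genes. Cox7c, a small membrane subunit, read 6.96, 5.92 and 6.83 in control cerebral and 7.27, 7.02 and 7.29 in knockout cerebral fragments. In cerebellar fragments it read 7.04, 6.51 and 6.47 in controls and 7.64, 7.12 and 7.08 in knockouts. The knockout arrays lay above the control arrays in both regions, and the control cerebral arrays themselves ranged from 5.92 to 6.96. Its differences, 0.62 (SE 0.27, adjusted p = 0.223) in cerebral and 0.60 (SE 0.27, adjusted p = 0.297) in cerebellar fragments, had the largest size among the 74 genes and did not pass the test. On the means the difference was 0.61 (SE 0.21, adjusted p = 0.193).

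Cox6c, another small membrane subunit, had the smallest knockout difference of complex IV on the means, -0.01 (SE 0.07). Its cerebral arrays read 13.04, 13.06 and 12.93 in controls and 12.80, 13.08 and 13.09 in knockouts. Its cerebellar arrays read 13.16, 13.25 and 13.29 in controls and 13.17, 13.20 and 13.36 in knockouts, and the genotypes overlapped.

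Complex V had a median knockout difference of -0.02 in cerebral and 0.01 in cerebellar fragments over 17 genes. Atp5k, subunit e of the membrane part, read 12.55, 12.47 and 12.73 in control cerebral and 12.05, 12.28 and 12.50 in knockout cerebral fragments. The cerebellar arrays read 12.48, 12.59 and 12.60 in controls and 12.45, 12.59 and 12.56 in knockouts. The cerebral groups overlapped slightly, with knockout cerebral 1 lowest, and the cerebellar groups overlapped throughout. The difference of -0.31 (SE 0.11, adjusted p = 0.142) in cerebral fragments did not pass the test in limma and was -0.03 (SE 0.11) in cerebellar fragments. Other probe sets of Atp5k gave -0.19 and -0.02 in cerebral fragments. Atp5e, the epsilon subunit of the catalytic head, had the smallest difference on the means, 0.01 (SE 0.12), made of -0.21 (SE 0.13) in cerebral and 0.22 (SE 0.13) in cerebellar fragments. Its arrays read 11.49, 11.45 and 11.66 in control cerebral, 11.20, 11.22 and 11.57 in knockout cerebral, 11.24, 11.47 and 11.59 in control cerebellar and 11.50, 11.59 and 11.87 in knockout cerebellar fragments.

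**Figure D2:**
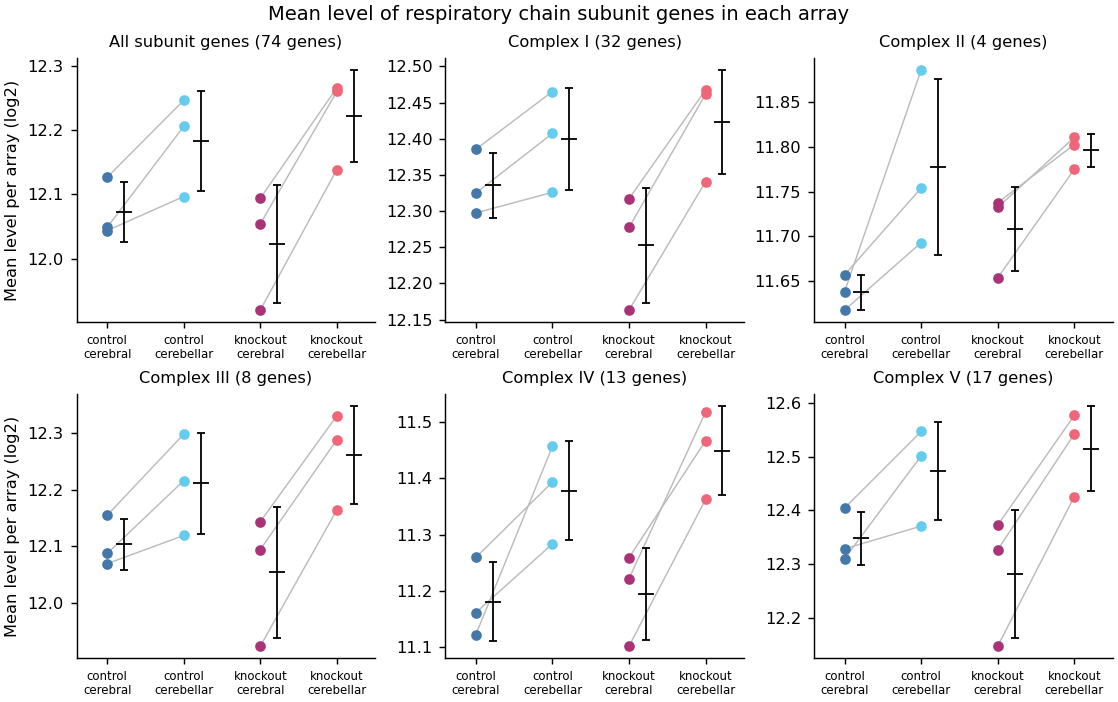
Mean log2 level per array over all 74 tested subunit genes and over those of each complex, by group. Each point is 1 array, with group mean and SD (n = 3) beside the points, and grey lines join same-numbered arrays, taken as 1 mouse. The mean over all 74 was 12.07 ± 0.05 in control cerebral, 12.02 ± 0.09 in knockout cerebral, 12.18 ± 0.08 in control cerebellar and 12.22 ± 0.07 in knockout cerebellar arrays, and the cerebellar point of every mouse lies above its cerebral point.

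The mean level over all 74 genes in single arrays was 12.04, 12.05 and 12.13 in control cerebral and 11.92, 12.05 and 12.09 in knockout cerebral fragments. It was 12.10, 12.21 and 12.25 in control cerebellar and 12.14, 12.26 and 12.27 in knockout cerebellar fragments. The genotypes overlapped within each region, and in each of the 6 mice the cerebellar array was the higher. Knockout cerebral 1 was the lowest array of the 12. In each group, of both genotypes, the mean rose with the replicate number. The labels do not say whether same-numbered arrays shared a processing step, and this was not tested.

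Markers of vessel wall cells moved with genotype. In cerebral fragments 7 of 10 smooth muscle markers and 5 of 9 pericyte markers were lower in the knockout, and 4 of 10 microglial markers were higher. In cerebellar fragments 7 of 10 smooth muscle and 4 of 9 pericyte markers were lower, and 3 of 9 markers of cerebellar neurons, Pvalb, Calb1 and Gabra6, were higher. Other genes of the neuronal lists were lower: Map2, 1 of 6 general neuronal markers tested, in both regions (-0.67 and -0.74), and Zic1, of the cerebellar neuron list, in cerebral fragments (-0.59). In control cerebral fragments the 9 genes of that list averaged 5.15, while the log2 of their sum, mostly Zic1, was 12.90. Zic1 is therefore not read as a measure of neurons there. The log2 of the summed smooth muscle markers was 15.998 to 16.210 in control cerebral and 15.34 to 15.51 in knockout cerebral arrays, and 16.12 to 16.38 and 15.39 to 15.57 in the cerebellar arrays. None of the 11 endothelial markers was called in either region. The part of these markers in the values of the subunit genes was not tested. Cox7a2l, Ndufv2, Ndufv3, Ndufb10 and Ndufa7 lie on chromosome 17 like Notch3, and none of the 5 was called in a knockout comparison.

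The second question was whether the subunit genes differed between the regions. In control mice 62 of 74 had a higher mean in cerebellar fragments, where 43.4% of all tested genes did, and in knockout mice 71 of 74, where 51.5% did. The median difference, cerebellar minus cerebral, was 0.08 log2 in control mice (a fold of 1.06) and 0.17 in knockout mice (a fold of 1.12), beside -0.02 and 0.00 over all tested genes. Single genes mostly did not pass the test in the fit that treats arrays as independent. None of 74 was called in control mice, where 13 had p under 0.05 without adjustment and 2.29% of all genes were called. In knockout mice 2 were higher and none lower, where 3.84% of all genes were higher and 2.96% lower, 6.8% in all.

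The cerebellar arrays lay wholly above the cerebral arrays for 20 subunit genes in control mice and wholly below for 1, Ndufs7, beside 10.9% of all genes above and 10% below, 21% in all. A second probe set of Ndufs7 read higher in cerebellar fragments, by 0.09 in control and 0.23 in knockout mice. In knockout mice the cerebellar arrays lay wholly above for 34 and below for none, beside 12.9% and 12.5% of all genes, 25.4% in all. In knockout mice 34 of 74 had p under 0.05 without adjustment in limma, beside 21.4% of all genes.

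Ndufa3, a small accessory subunit of the membrane arm of complex I, was 1 of the 2 called in knockout mice. It read 13.63, 13.63 and 13.63 in knockout cerebral and 13.79, 13.92 and 13.98 in knockout cerebellar fragments, without overlap. In control mice it read 13.58, 13.55 and 13.70 in cerebral and 13.69, 13.76 and 13.85 in cerebellar fragments, which overlapped. The difference was 0.27 (SE 0.07, adjusted p = 0.0424) in knockout mice and 0.16 (SE 0.07, adjusted p = 0.313) in control mice.

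Atp5mpl, a small proteolipid of the ATP synthase membrane part, was the other. It read 9.36, 9.43 and 9.44 in knockout cerebral and 9.70, 9.92 and 9.77 in knockout cerebellar fragments. In control mice it read 9.37, 9.30 and 9.53 in cerebral and 9.54, 9.64 and 9.86 in cerebellar fragments, and in both genotypes the regions did not overlap. The difference was 0.39 (SE 0.09, adjusted p = 0.0354) in knockout mice and 0.28 (SE 0.09, adjusted p = 0.174) in control mice. The count of 2 fell to 0 when the fit held only the knockout arrays, without knockout cerebral 1 or 3 and without knockout cerebellar 2 or 3, and to 1, Atp5g1, without knockout cerebral 2.

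Same-numbered arrays of a genotype were taken as the regions of 1 mouse, which the labels do not state. Their deviations from the group means correlated with r from 0.37 to 0.70 across all tested genes, which a shared processing step could also give. With the mouse as a block, 18 of 74 subunit genes were higher in cerebellar fragments of knockout mice and none was lower, where 8.5% of all genes were higher and 6.21% lower, 14.7% in all. These were 8 of 32 in complex I, 0 of 4 in complex II, 2 of 8 in complex III, 2 of 13 in complex IV and 6 of 17 in complex V. In control mice the block gave 1 call, Atp5mpl (adjusted p = 0.0429 in limma), where 5.52% of all genes were higher and 7.81% were called either way, and 3 calls without control mouse 1. The count in knockout mice was 4 without knockout mouse 1, 3 without mouse 2 and 2 without mouse 3, so leaving out any 1 of the 3 mice removed most of these calls.

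The 18 included Uqcrq, a small subunit of complex III (0.35, adjusted p = 0.00703), and Uqcr11 (0.32, adjusted p = 0.0146). In complex I they included Ndufb2 (0.33, adjusted p = 0.0186), Ndufs5 (0.30, adjusted p = 0.0415) and Ndufc1 (0.30, adjusted p = 0.0165), whose promoter stretch is among those above. In complex IV they were Cox8a (0.53, adjusted p = 0.016) and Cox7a2 (0.24, adjusted p = 0.0318). In complex V they included Atp5g1 (0.76, adjusted p = 0.0191), Atp5l (0.44, adjusted p = 0.0497) and Atp5e (0.33, adjusted p = 0.0184). All these p are limma's with the mouse as a block. Of the 18, 11 were also higher in the cerebellar array in 3 of 3 control mice. Subunit genes outside the 18, such as Atp5b, Ndufa1, Ndufa13 and Ndufs1, were so as well. In control mice 1, 2 and 3 taken singly, 54, 66 and 54 of all 74 were higher there. The count of 11 is therefore not read as particular to the 18.

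The knockout effect did not differ detectably between the regions, which is the same as the region difference not differing between genotypes. The test of that difference called 0 of 74 subunit genes and 0.0427% of all genes (0.0171% higher and 0.0256% lower). Without adjustment 1 subunit gene, Atp5e at 0.43 (SE 0.19), had p under 0.05 in limma, beside 4.66% of all genes. The median was 0.10, and 54 of 74 were above 0, beside 56.2% of all genes. The median 95% interval, with residual degrees of freedom as above, reached 0.27 to either side. So the larger number of calls in knockout mice is not shown to be a difference between the genotypes.

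**Figure D3:**
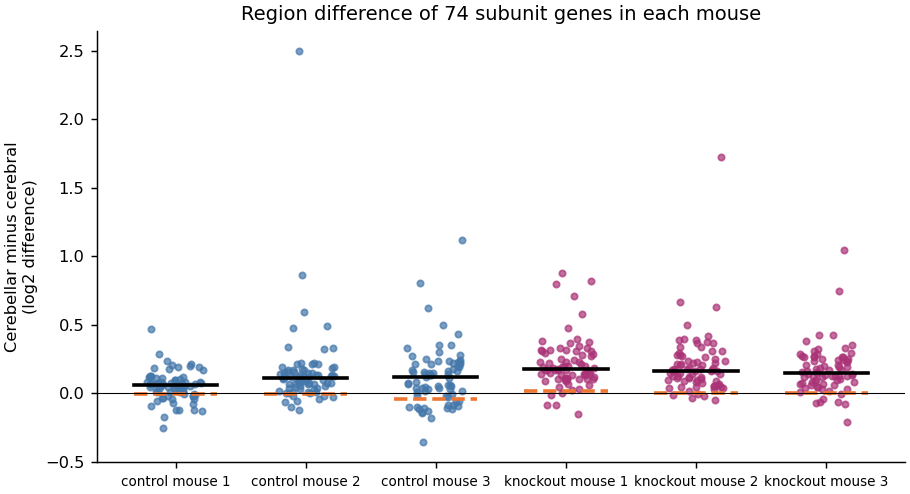
Cerebellar minus cerebral log2 difference of each of the 74 tested subunit genes (points) in each of the 6 mice; black bars are the medians of the 74 and orange dashed bars the medians of all 11716 tested genes. The black bar lies between 0.06 and 0.18 in the 6 mice, and the orange bar between -0.04 and 0.01.

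In single mice the median difference of the 74 genes was 0.06, 0.11 and 0.12 in control mice 1, 2 and 3 and 0.18, 0.16 and 0.15 in knockout mice 1, 2 and 3. It was above 0 in all 6 mice, with 54, 66 and 54 genes above 0 in the control mice and 70, 69 and 67 in the knockout mice. Counted over mice, 33 of 74 subunit genes, 44.6%, were higher in the cerebellar array in 6 of 6 mice, beside 13.1% of all tested genes. None was lower in 6 of 6, beside 12% of all tested genes. By complex these were 11 of 32 in complex I, 1 of 4 in complex II, 3 of 8 in complex III, 7 of 13 in complex IV and 11 of 17 in complex V.

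A fit over all 6 mice with the mouse as a block, added after the data had been seen, called 23 of 74 subunit genes higher in cerebellar fragments and none lower, where 11% of all genes were higher and 8.28% lower, 19.3% in all. The median was 0.12 over the 74, beside -0.01 over all genes, and 72 of 74 were above 0, beside 46%. The 23 were 7 of 32 in complex I, 0 of 4 in complex II, 4 of 8 in complex III, 5 of 13 in complex IV and 7 of 17 in complex V. The count was 15 without control mouse 2 and, without knockout mouse 1, 2 or 3, it was 15, 13 and 11. Besides Cox6b2, Atp5g1 and Cox8a, described with their isoforms below, the values of these 23 lay between 0.14 for Ndufb8 and 0.34 for Atp5mpl and Atp5l. They included Atp5b, the catalytic beta subunit (0.20, adjusted p = 0.0197), and Ndufs1, the largest iron-sulfur subunit of complex I (0.17, adjusted p = 0.0112). They also included Uqcrfs1, the Rieske protein of complex III (0.15, adjusted p = 0.0257), and Cox4i1, a regulatory subunit of complex IV (0.15, adjusted p = 0.0344). Of the 23, 18 had a promoter window, and 7 of these (38.9%) held any of the NRF1, ETS or YY1 letters, beside 26 of the other 45 subunit genes with a window (57.8%). The stricter NRF1 letters went the other way, in 3 of the 18 (16.7%) and 4 of the other 45 (8.89%). Neither contrast was tested.

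A further 71 probe sets read 46 of the 74 genes. Their cerebellar minus cerebral difference was above 0 for 56 of 71 in control mice and 64 in knockout mice, with medians of 0.04 and 0.17 log2 and no test.

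Markers of several cell types moved with region as well. In the fit over all 6 mice 8 of 9 pericyte markers, 6 of 7 choroid plexus markers and 5 of 9 markers of cerebellar neurons were higher in cerebellar fragments, and 9 of 10 microglial markers were lower. Of 7 astrocyte markers 4 were higher and 2 lower, 2 of 10 smooth muscle markers were higher, and none of 11 endothelial markers was called. The log2 of the summed pericyte markers was 16.40 to 16.50 in control cerebral and 16.75 to 16.91 in control cerebellar arrays, and 16.23 to 16.26 and 16.57 to 16.67 in the knockout arrays. That of the choroid plexus markers was 16.20 to 16.26 and 16.47 to 16.62 in control, and 16.24 to 16.50 and 16.56 to 16.66 in knockout arrays. For cerebellar neurons the sums were 12.716 to 13.003 and 13.32 to 13.44 in control, and 12.19 to 12.59 and 12.81 to 13.23 in knockout arrays. The brightest marker of that list, Zic1, carries most of this sum, and the mean log2 level over the 9 markers ordered the genotypes the other way in cerebellar fragments: it was 5.15 ± 0.06 and 5.69 ± 0.16 (SD, n = 3) in control, and 5.06 ± 0.05 and 6.26 ± 0.22 in knockout arrays. For microglia they were 15.91 to 16.40 and 15.688 to 16.003 in control, and 16.58 to 17.04 and 16.01 to 16.08 in knockout arrays. The part of these markers in the region difference of the subunit genes was not tested.

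Several subunits of complexes IV and V have isoforms from separate genes, and these were followed individually. Cox6b2, known as the testis isoform of subunit 6b, had the largest region difference of the 74 genes. It read 3.65, 3.73 and 3.61 in control cerebral and 4.12, 6.23 and 4.73 in control cerebellar fragments. In knockout mice it read 3.45, 3.65 and 3.64 in cerebral and 4.27, 5.38 and 4.68 in cerebellar fragments. Cerebral arrays lay just above 3.27 and cerebellar arrays above them in every mouse, by widely differing amounts. The difference was 1.36 (SE 0.45, adjusted p = 0.166) in control and 1.20 (SE 0.45, adjusted p = 0.147) in knockout mice, and 1.28 (SE 0.24, adjusted p = 0.011) in the fit over all 6 mice.

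Cox6b1, the widely expressed isoform, read 14.26, 14.23 and 14.45 in control cerebral and 14.27, 14.23 and 14.35 in knockout cerebral fragments. In cerebellar fragments it read 14.36, 14.26 and 14.37 in controls and 14.40, 14.37 and 14.48 in knockouts, and it was not called in any comparison. Its region difference was 0.02 (SE 0.07) in control and 0.13 (SE 0.07) in knockout mice.

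Cox8a, the widely expressed isoform of subunit 8, read 7.84, 7.82 and 7.84 in control cerebral and 7.31, 7.69 and 7.86 in knockout cerebral fragments. The cerebellar arrays read 7.89, 8.30 and 8.34 in controls and 7.89, 8.32 and 8.24 in knockouts. The regions did not overlap in either genotype, and the cerebellar array was the higher in each mouse. The region difference was 0.43 (SE 0.08, adjusted p = 0.00777 in limma) over all 6 mice. A second probe set of Cox8a, near the floor at a mean of 3.44, gave 0.10 in control and 0.13 in knockout mice.

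Cox4i1 read 13.85, 13.90 and 13.94 in control cerebral, 13.90, 14.04 and 14.08 in control cerebellar, 13.79, 13.92 and 13.98 in knockout cerebral and 14.06, 14.04 and 14.17 in knockout cerebellar fragments. Cox6a1, the isoform of subunit 6a found in most tissues, read 14.33, 14.26 and 14.63 in control cerebral, 14.38, 14.43 and 14.49 in control cerebellar, 14.23, 14.26 and 14.38 in knockout cerebral and 14.46, 14.42 and 14.50 in knockout cerebellar fragments. Neither was called between genotypes.

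The subunit 7a set has a muscle isoform, Cox7a1, a widely expressed isoform, Cox7a2, and the related Cox7a2l. Cox7a1 read 5.19, 5.42 and 5.46 in control cerebral, 5.47, 5.47 and 5.60 in control cerebellar, 5.31, 5.64 and 5.50 in knockout cerebral and 5.16, 6.03 and 5.55 in knockout cerebellar fragments, and was not called. Cox7a2 read 13.51, 13.45 and 13.59 in control cerebral, 13.58, 13.61 and 13.70 in control cerebellar, 13.26, 13.48 and 13.42 in knockout cerebral and 13.56, 13.62 and 13.69 in knockout cerebellar fragments. Cox7a2l read 13.22, 13.33 and 13.32 in control cerebral, 13.39, 13.31 and 13.24 in control cerebellar, 13.26, 13.34 and 13.28 in knockout cerebral and 13.29, 13.32 and 13.21 in knockout cerebellar fragments. Over all 6 mice Cox7a2 was higher in cerebellar fragments (0.17, SE 0.04, adjusted p = 0.0292), and the regions of Cox7a2l overlapped in both genotypes.

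Atp5g1, Atp5g2 and Atp5g3 encode the same mature protein, subunit c of the rotor ring, behind different import sequences. Atp5g1 read 9.91, 9.74 and 9.79 in control cerebral and 9.96, 10.60 and 10.60 in control cerebellar fragments. In knockout mice it read 9.24, 10.14 and 9.74 in cerebral and 10.12, 10.80 and 10.49 in cerebellar fragments. The regions overlapped between knockout mice, but within each mouse the cerebellar array was higher, and the region difference over all 6 mice was 0.67 (SE 0.11, adjusted p = 0.00556 in limma). A second probe set of Atp5g1, with a mean of 4.31, gave 0.40 in control and 0.13 in knockout mice.

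Atp5g2 read 10.88, 10.84 and 10.94 in control cerebral, 10.76, 10.99 and 10.95 in control cerebellar, 10.39, 10.62 and 10.89 in knockout cerebral and 10.87, 10.86 and 10.93 in knockout cerebellar fragments. It was not called in any comparison, and knockout cerebral 1 was its lowest array. Atp5g3 read 14.05, 14.06 and 14.06 in control cerebral, 14.14, 14.25 and 14.27 in control cerebellar, 14.05, 14.13 and 14.14 in knockout cerebral and 14.24, 14.24 and 14.28 in knockout cerebellar fragments. Its region difference over all 6 mice was 0.16 (SE 0.03, adjusted p = 0.02). None of the 3 was called between genotypes.

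**Figure D4:**
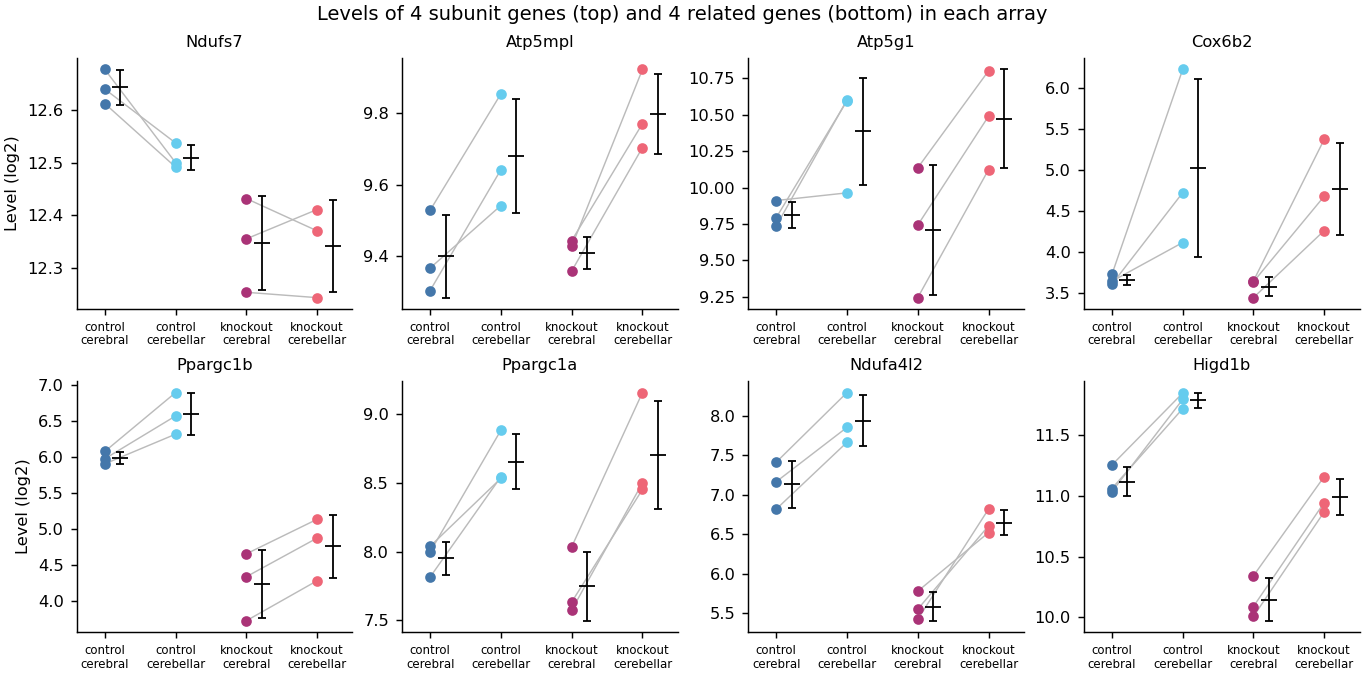
Log2 level in each array of 4 subunit genes (top) and 4 related genes that are not subunits of the set (bottom), by group. Points are arrays, with group mean and SD (n = 3), and grey lines join same-numbered arrays, taken as 1 mouse. Each panel has its own axis. The knockout arrays of Ndufs7 lie below the control arrays of the same region, but it was called in cerebral fragments only. Atp5mpl, Atp5g1 and Cox6b2 read higher in the cerebellar array of each mouse. Ppargc1b, Ndufa4l2 and Higd1b were called lower in the knockout in both regions.

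Genes that act on the respiratory chain without being among the 81 were read from lists of the pathway. Over all tested genes, 3.93% were lower and 2.45% higher in the knockout in cerebral fragments. In cerebellar fragments 3.17% were lower and 1.06% higher. Of 13 regulators of mitochondrial biogenesis 1 was lower in the knockout and none higher, in each region. It was Ppargc1b, a coactivator that raises the transcription of nuclear genes for mitochondria. Its single probe set read 5.97, 6.07 and 5.90 in control cerebral and 4.33, 4.65 and 3.72 in knockout cerebral fragments. In cerebellar fragments it read 6.56, 6.89 and 6.31 in controls and 4.87, 5.13 and 4.28 in knockouts, with no overlap in either region.

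The difference of Ppargc1b was -1.75 (SE 0.26, adjusted p = 0.00322) in cerebral and -1.83 (SE 0.26, adjusted p = 0.00247) in cerebellar fragments, and -1.79 (SE 0.24, adjusted p = 0.0128) on the means. Its close relative Ppargc1a did not pass the test between genotypes, at -0.20 (SE 0.19) and 0.05 (SE 0.19). The transcription factors Nrf1, Tfam and Esrra were not called between genotypes, with differences between -0.11 and 0.01. The median over the 13 regulators was -0.12 in cerebral and -0.10 in cerebellar fragments.

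Between regions Ppargc1a was higher in cerebellar fragments of knockout mice, by 0.96 (SE 0.19, adjusted p = 0.0167), and at 0.70 (SE 0.19, adjusted p = 0.101) in control mice it did not pass. With the mouse as a block it was higher in both genotypes, by 0.70 (SE 0.09, adjusted p = 0.00719) in control and 0.96 (SE 0.09, adjusted p = 0.00156) in knockout mice in limma. It read 7.815, 8.038 and 7.998 in control cerebral and 8.54, 8.53 and 8.88 in control cerebellar fragments. In knockout mice it read 7.63, 8.03 and 7.57 in cerebral and 8.45, 9.16 and 8.50 in cerebellar fragments. The regions did not overlap in either genotype. In the fit over all 6 mice Ppargc1a and Ppargc1b were both higher, by 0.83 and 0.57, and Gabpb1, which encodes the partner of the ETS factor GABPA, was lower at -0.22.

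Of 10 tested electron carriers and partners of the respiratory chain, 2 were lower in the knockout in each region, Ndufa4l2 and Higd1b. Ndufa4l2, a relative of Ndufa4 known as a target of hypoxia-inducible factor and a pericyte transcript, read 7.17, 7.41 and 6.82 in control cerebral and 5.42, 5.55 and 5.78 in knockout cerebral fragments. Its difference was -1.55 (SE 0.19, adjusted p = 0.000732) in cerebral and -1.29 (SE 0.19, adjusted p = 0.00262) in cerebellar fragments. Ndufa4 itself read 11.50, 11.59 and 11.58 in control cerebral and 11.55, 11.69 and 11.66 in knockout cerebral fragments, and was not called. Higd1b, which is also in the pericyte marker list, was at -0.97 (SE 0.11, adjusted p = 0.000393) and -0.80 (SE 0.11, adjusted p = 0.00159). Cytochrome c, Cycs, and cytochrome c1, Cyc1, were not called.

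Of 43 tested assembly factors 1 was lower in each region, Ndufaf2, a chaperone of late complex I assembly, and none was higher. It read 9.37, 9.06 and 9.47 in control cerebral and 8.71, 8.69 and 8.69 in knockout cerebral fragments, a difference of -0.60 (SE 0.12, adjusted p = 0.0134). In cerebellar fragments it was -0.51 (SE 0.12, adjusted p = 0.039), and on the means of both regions, at -0.56 (adjusted p = 0.0512), it did not pass. None of 15 enzymes of the citric acid cycle and pyruvate dehydrogenase was called between genotypes. Of 76 mitochondrial ribosomal protein genes Mrpl44 was lower in both regions, at -0.42 and -0.34, and Mrps34 was higher in cerebral fragments at 0.44. As shares, the counts of the assembly factor and ribosomal lists did not exceed those of all tested genes given above.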

How the data were processed

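The deposited values are log2 and, per the submitters' processing notes, come from GCRMA 2.32.0; other steps and the genome build are not stated there. GCRMA normalises between arrays, so a shift common to all genes would be removed. The values were used as deposited, with 64 control probe sets of 45101 left out, and the small number of arrays limits the precision. Per the design text each replicate is a mouse of its own, and arrays of a genotype with the same number were taken as that mouse's regions.

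A probe set was kept where at least 3 of 12 arrays exceeded 3.27, and each gene was read from its brightest probe set on average. Two-sided tests used lmFit and eBayes of limma 3.58.1 under R 4.3.3, checked on simulated data, with Benjamini-Hochberg adjustment over 11716 genes and a threshold of 0.05. The fits had 4 group means over 12 arrays (8 residual degrees of freedom) or 6 means per mouse (4). The regions taken as 1 mouse's had r from 0.37 to 0.70 between their deviations from the group means, so fits with the mouse as a block are given beside the region comparisons.

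Genes with values in every array were those called, the isoform sets, the members with the largest and smallest knockout difference of each complex, and up to 2 called genes per pathway list and comparison; others are examples chosen after their values were seen. Marker and pathway lists are described by counts and medians, with no set test. The members, lists and tests were chosen with earlier results of these data known. The fit over all 6 mice and the leaving out of mice under the block were added after seeing the data. The NRF1 letters searched in promoters were shortened by 1 base after a first search with the longer letters had been seen; the share of subunit genes with a match was above that of all genes in both searches. Alternatives covered the filter, the probe set per gene, the scaling, array weights, the variance model, which arrays were fitted, blocks and the leaving out of each array.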

Additional observations from a re-analysis of the deposited data

How the results depend on the processing

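The median differences of the 74 subunit genes moved by less than the spread between arrays under every alternative run, but those between genotypes lie near 0 and their sign is not settled. In cerebral fragments the median, -0.04 as reported, was 0.01 without knockout array 1 and 0.00 with array weights. In cerebellar fragments it was 0.04 as reported and -0.0032 without control array 1. On the means it was 0.00 as reported, -0.01 with arrays centred on their medians, and -0.03 to 0.04 without each mouse. The medians between regions stayed above 0 in every alternative run. In cerebral fragments the count called between genotypes, 1 as reported, was 0 with probe sets averaged or only the compared groups in the fit, and 2 with every probe set on its own, with arrays centred on their medians or with a trended robust variance. It was 3 with array weights, and 0 to 1 without each array. With the replicate number as a block it was 2 (Ndufb8 and Ndufs7), and this block gave 0 calls in cerebellar fragments and on the means. The labels link same-numbered mice of the 2 genotypes by number only, with r from -0.17 to 0.26 between their deviations over all tested genes. The mean level of the 74 nevertheless rose with the number in each group, and a processing step shared by same-numbered arrays was not tested. Between regions in control mice the count, 0 as reported, was 1 without a filter or with a trended robust variance (Atp5a1 in both), 7 with array weights, 1 with the mouse as a fixed block (0 to 3 without each mouse) and 6 as a random block. In knockout mice the count, 2 as reported, was 1 without a filter, 4 with a trended robust variance, 0 with only the compared groups, 18 with the mouse as a fixed block (2 to 4 without each mouse), 24 as a random block, and 0 to 2 without each array. Over all 6 mice the count of 23 was 11 to 22 without each mouse. The counts of 0 in cerebellar fragments, on the means and for the difference between regions stayed at 0 in every alternative. The cause of these changes was not tested, except that leaving out arrays or groups leaves fewer samples.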

Other observations

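Other lists of mitochondrial genes were compared between regions as well. Of 76 genes of the mitochondrial ribosome 9 were higher in cerebellar fragments of knockout mice with the mouse as a block in limma, among them Mrps6 (0.59) and Mrpl34 (0.35), and none was lower, where 8.5% of all tested genes were higher. Their median difference was 0.07 in knockout and -0.04 in control mice, beside 0.17 and 0.08 for the subunit genes. Over all 6 mice 3 of 76 were higher and 1 lower, where 11% of all genes were higher and 8.28% lower, so neither count of this list stands clearly above that of all genes. Of 15 enzymes of the citric acid cycle and pyruvate dehydrogenase 4 were higher in cerebellar fragments over all 6 mice and none was lower, with the same 11% and 8.28% for all genes. They were Idh3a (0.31), the catalytic subunit of isocitrate dehydrogenase, Pdha1 (0.23), Dld (0.22) and Suclg1 (0.20), with a median over the 15 of 0.10. Of 43 assembly factors 1 was lower, Coa7 (-0.29), and none was higher, with a median of 0.01. Among 10 electron carriers and partners 2 were higher in cerebellar fragments over all 6 mice and none was lower. They were Ndufa4l2 (0.94) and Higd1b (0.76), with a median over the 10 of 0.14.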
